A study of Mus musculus with 20 samples.

Results

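Mouse tumours in which only the cancer cells were altered were compared here with tumours in which only the antibody was given. The 5 libraries labelled CT26 POLE-mutant+PBS (called mutant PBS) were set against the 5 labelled CT26-vector+anti-PD-1 (called vector anti-PD-1), 10 of the 20 libraries of the study. The question was where either intervention alone gave a like tumour state, in interferon response, antigen presentation and T cells, and where the states differed. The study sequenced total RNA, taken with Trizol, from bulk tumours grown from CT26, a mouse cell line that began as a BALB/c colon carcinoma. Its 4 groups of 5 tumours crossed vector or POLE-mutant cells with PBS or anti-PD-1. Mutant PBS tumours carry the genotype label POLE-mutant and received PBS, the antibody's control. Vector anti-PD-1 tumours carry the genotype label control and received the antibody. The 5 vector PBS tumours, genotype control with PBS, were compared only as a common reference, and mutant anti-PD-1 tumours entered no comparison. Both groups entered the fit, so they share in the estimate of spread behind the direct p-values. The labels give no age or strain of the mice, no dose or time, no antibody clone, and no name of the mutation or of separate cell clones. An effect of the mutation and any further difference between the cell populations cannot be told apart. The series title names CHEK2, whereas labels and design text name POLE.

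PD-1 is an inhibitory receptor on activated T cells, and antibodies that block it can restore T cell activity in tumours. T cells and natural killer cells release interferon-gamma, which induces antigen presentation genes, the chemokines Cxcl9 and Cxcl10, and, through the coactivator CIITA, the MHC class II genes. POLE encodes the enzyme that copies DNA within polymerase epsilon, and loss of its proofreading raises the mutation load of tumours. Granzymes are serine proteases of cytotoxic lymphocytes that enter target cells with the help of perforin.

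Values are the deposited expression levels, taken to be FPKM, that is, fragments relative to gene length and library size, whose sequencing depth is unknown. Genes at 1 FPKM or more in at least 5 of the 20 libraries were tested on log2(FPKM + 1) with limma, 13982 in all, and a gene passed at a Benjamini-Hochberg adjusted p under 0.05. Differences are mutant PBS minus vector anti-PD-1 unless another contrast is named, and on this scale they understate changes of weakly expressed genes. The design text gives 5 tumours per group, so p-values measure the spread between tumours, and replicate numbers only name them. Vector anti-PD-1 replicate 1 stood apart, with a total of 566913 FPKM against 328740 to 395938 in the other 19 libraries, 8.40% of it from small RNA genes, and it is left out in turn below. Titles carry animal identifiers in 2 styles, an M with a number or a number alone, 3 to 2 in each of the 3 groups. The style is a term of the fit, and its meaning is not given. In bulk tissue, fewer cells of a type and less RNA per cell cannot be told apart. The colon carcinoma identity was weakly marked, since only 5 of 16 colon epithelial markers passed the filter. Krt18, an epithelial keratin, measured 6.85 to 22.6 FPKM in the 10 tumours, whereas Epcam, an epithelial adhesion gene, lay between 0 and 0.84 FPKM. Cdx2, an intestinal transcription factor below the filter, measured 0.227 to 0.793 FPKM in vector anti-PD-1 and 0 to 0.0361 FPKM in mutant PBS tumours.

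Mouse Pole, the labelled gene, measured 4.14, 4.63, 5.27, 6.35 and 5.73 FPKM in mutant PBS tumours (replicates 1 to 5). In vector anti-PD-1 tumours it measured 4.05, 7.12, 10, 7.32 and 9.02 FPKM. All mutant PBS values lay below those of vector anti-PD-1 replicates 2 to 5, and only replicate 1 overlapped. The difference of -0.41 ± 0.18 (SE, n = 5 per group) did not pass (limma, adjusted p = 0.301). Chek2, a DNA damage checkpoint kinase, averaged 6.44 ± 1.34 FPKM in mutant PBS and 5.01 ± 1.34 FPKM in vector anti-PD-1 tumours (SD, n = 5), a difference of 0.32 with adjusted p = 0.28. The labels do not name the mutation, and these levels were not taken as a check of the genotype.

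Across all genes, 203 of 13982 (1.45%) differed between the 2 interventions, 97 higher (0.694%) and 106 lower (0.758%) in mutant PBS tumours. Of these, 74 differed at least 2-fold on the log2(FPKM + 1) scale. For 11671 genes (83.5%) the 95% interval of the difference lay within 2-fold either way. Of 491 tested members of 32 pathway and cell type lists 7 passed, a share near the 1.45% of all genes. These were 5 granzyme genes next to Gzmb, all lower in mutant PBS tumours, and the stress gene Herpud1 and the growth factor gene Areg, both higher. Against the shared vector PBS tumours, 203 genes differed in mutant PBS (74 higher, 0.529%, and 129 lower, 0.923%) and 0 in vector anti-PD-1 by limma. In the latter contrast, 426 genes had an unadjusted p under 0.05, and limma with sample weights called 5. The count of the direct comparison depended on the libraries. It was 381 without vector anti-PD-1 replicate 1 (133 higher, 248 lower, 187 of them among the 203), 94, 123 and 104 without its replicates 3, 4 and 5, and for mutant PBS it was 72 when replicate 1, 67 when replicate 2 and 116 when replicate 4 was dropped. Within the identifier styles it was 1 (M-style) and 266 (78 higher and 188 lower, number-only), and with values rescaled without small RNA and mitochondrial genes it was 126, of which 75 were higher and 51 lower. That rescaling moved the median difference of all genes from 0.08 to 0.18.

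MHC class II genes, whose products display peptides to helper T cells, mostly lay above the vector PBS range in both kinds of tumour, and no member passed the test between the interventions. Against vector PBS, members passed in mutant PBS but none did in vector anti-PD-1 tumours, where 0 of all genes tested passed. H2-Aa, the class II alpha chain gene, measured 5.73, 28.8, 163, 15.7 and 7.82 FPKM in mutant PBS tumours. Vector anti-PD-1 tumours had 10.9, 8, 9.44, 51.2 and 10.2 FPKM of it, and vector PBS tumours 3.83, 2.13, 4.75, 2.04 and 1.59 FPKM. Every tumour of either intervention thus lay above every vector PBS tumour, with mutant PBS replicate 3 and vector anti-PD-1 replicate 4 highest. The direct difference of H2-Aa was 0.58, with a 95% interval of -0.66 to 1.82 (limma, adjusted p = 0.636). That interval reaches beyond 2-fold upward, so equal levels were not shown.

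In Cd74 the same tumours were highest, while the order of the rest differed. Cd74, the invariant chain that guides class II molecules to the endosome, measured 37.7, 99.4, 493, 55.4 and 23.3 FPKM in mutant PBS and 29.6, 44, 38.7, 169 and 41.7 FPKM in vector anti-PD-1 tumours. In vector PBS tumours it ran from 8.46 to 16.3 FPKM, below all 10. Ciita, the class II coactivator, was far weaker, with 0.122 to 5.19 FPKM in mutant PBS, 0.0809 to 1.51 FPKM in vector anti-PD-1 and 0.032 to 0.0937 FPKM in vector PBS tumours. H2-DMb1, a chain of the peptide loading factor H2-DM, averaged 11.7 ± 15.8 FPKM in mutant PBS and 4.96 ± 5.11 FPKM in vector anti-PD-1 against 0.795 ± 0.208 FPKM in vector PBS tumours (SD, n = 5).

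Of 8 class II genes tested from a list of 11, 0 passed in the direct comparison by limma and 0 separated the 2 groups without overlap, where 3.04% of all genes did so upward and 2.07% downward. H2-Eb2, H2-Oa and H2-Ob fell below the filter, at 0 to 0.66 FPKM in the 10 tumours. The median difference of the 8 tested genes was 0.56, and 0.38 without vector anti-PD-1 replicate 1, where still 0 of 8 separated the groups (3.6% of all genes did so upward). Without mutant PBS replicate 3 the median was -0.04, and H2-Aa, H2-Ab1, H2-Eb1 and Cd74 each turned slightly negative. Within the identifier styles the median was 0.91 (M-style) and 0.16 (number-only). Only 1 of the 8 had an interval within 2-fold either way.

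Each intervention was next read against the vector PBS tumours that both comparisons share. In mutant PBS tumours all 8 class II genes lay above every vector PBS tumour (3.3% of all genes did) and 5 passed, at a median of 2.33. In vector anti-PD-1 tumours 6 of 8 lay above every vector PBS tumour (0.279% of all genes did) and 0 passed, at a median of 1.71. H2-Ab1, the class II beta chain gene, had an adjusted p of 0.0252 against vector PBS in mutant PBS and of 0.724 in vector anti-PD-1 tumours (limma), the latter with an unadjusted p of 0.00228. The 5 calls in mutant PBS tumours depended on single libraries, with 0 left without vector PBS replicate 1 or replicate 2, 1 without mutant PBS replicate 2 or 4 or vector PBS replicate 3 or 5, and 6 without vector anti-PD-1 replicate 1. Skeletal muscle genes also varied, with a list level (the mean log2(FPKM + 1) of 21 genes tested of 24) of 0.35 to 0.80 in vector PBS, 0.31 to 4.25 in vector anti-PD-1 and 0.28 to 5.27 in mutant PBS tumours. Atp2a1, a muscle calcium pump, measured 105 FPKM in mutant PBS replicate 3, 39.5 FPKM in vector anti-PD-1 replicate 3 and 0.11 FPKM in vector anti-PD-1 replicate 4. With the muscle level as a covariate, 1 of the 8 class II genes passed in mutant PBS against vector PBS, at a median of 1.99, and 0 in the direct comparison. The part of muscle tissue in the class II result was not tested further.

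The promoter of H2-Eb1 is shown because it carries the sequence elements through which class II genes are known to be read, from 250 bases before to 50 after the RefSeq start. Capitals mark a match to the X box that begins 91 bases before the start. They also mark the letters CCAAT, the core of the Y box, as ATTGG (the other strand) at 59 and as CCAAT at 35 bases before it. The letters alone do not show that either site is a Y box.

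H2-Eb1 promoter, GRCm38.p6 chr17:34305617-34305916, plus strand: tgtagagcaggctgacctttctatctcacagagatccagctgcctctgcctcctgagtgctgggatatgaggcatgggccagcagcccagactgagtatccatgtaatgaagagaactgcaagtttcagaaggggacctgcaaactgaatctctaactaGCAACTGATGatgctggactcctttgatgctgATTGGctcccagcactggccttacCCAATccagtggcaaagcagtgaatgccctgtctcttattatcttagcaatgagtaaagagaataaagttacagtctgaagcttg

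The promoters of H2-Aa and H2-DMb1 hold CCAAT but no match to these X box letters. Only these exact letters were searched, so other forms of the X box would be missed. Whether H2-Eb1 is typical of the class II genes was not tested. Among 32851 RefSeq promoters of this length, 0.192% hold this X box and 37.4% hold CCAAT, counted on both strands. A match describes the letters and shows no binding.

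Genes that interferon-gamma induces were above vector PBS in most tumours of both interventions. Between the interventions 0 of 32 differed by limma, where 1.45% of all genes did. Cxcl9, a chemokine that draws T cells through CXCR3, measured 6.58, 28.5, 112, 35.4 and 15.6 FPKM in mutant PBS and 4.5, 10.6, 17.9, 57.5 and 19.4 FPKM in vector anti-PD-1 tumours. In vector PBS tumours it measured 5.27, 1.18, 1.87, 1.13 and 0.995 FPKM. Replicate 1 of vector anti-PD-1 was the only tumour of the 10 that reached into the vector PBS range. The difference of 0.68 had a 95% interval of -0.67 to 2.03 and an adjusted p of 0.604.

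Ubd, a ubiquitin-like gene induced by interferon-gamma, measured 2.89, 8.04, 26.8, 12.3 and 6.66 FPKM in mutant PBS tumours. In vector anti-PD-1 tumours it measured 1.65, 3.31, 5.24, 14.9 and 3.51 FPKM, and 0.08 to 0.705 FPKM in vector PBS tumours, below all of both groups. The direct difference of 0.86 ± 0.44 (SE, n = 5 per group) did not pass (adjusted p = 0.358). Cd274, which encodes the PD-1 ligand PD-L1, measured 10.1, 12.7, 32.2, 22.1 and 7.86 FPKM in mutant PBS and 1.22, 8.29, 10.2, 19 and 8.58 FPKM in vector anti-PD-1 tumours, a difference of 0.91 (adjusted p = 0.32). Gbp2, a guanylate-binding protein of cell defence, averaged 130 ± 107 FPKM and 66.8 ± 61.7 FPKM in the same order (SD, n = 5), and did not pass (adjusted p = 0.446). Tgtp1, an immunity-related GTPase with a near-identical copy Tgtp2 that can share its reads, differed by 1.10 (adjusted p = 0.355). The cytokine gene itself, Ifng, was weak, with 0.19 to 4.45 FPKM in mutant PBS, 0.0342 to 1.41 FPKM in vector anti-PD-1 and 0 to 0.0302 FPKM in vector PBS tumours. Every tumour of either intervention lay above every vector PBS tumour in it, the lowest only just.

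The median difference of the 32 interferon-gamma genes was 0.63, against 0.08 for all genes tested. It was 0.38 without vector anti-PD-1 replicate 1, 0.29 without mutant PBS replicate 3 and 0.99 without vector anti-PD-1 replicate 4. Of the 32 genes, 30 were higher in mutant PBS tumours, beside 8603 of all 13982 genes. Only 5 (15.6%) had an interval within 2-fold either way, beside 83.5% of all genes, so equal levels were not shown. Against vector PBS the median was 1.48 in mutant PBS, where 7 of 32 passed (0.529% of all genes did so upward) and 14 lay above every vector PBS tumour (3.3% of all genes). It was 0.73 in vector anti-PD-1, where 0 passed (0 of all genes did) and 1 lay above every vector PBS tumour (0.279% of all genes). The 7 that passed were Cxcl9, Gbp2b, Ubd, Tgtp1, Tgtp2, Igtp and Iigp1, and between 3 and 15 passed when single libraries were left out. When vector anti-PD-1 replicate 1 was left out, 16 of 32 interferon-gamma genes and 7 of 8 class II genes lay above every vector PBS tumour in the other 4 antibody-treated tumours, where 1.32% of all genes did.

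**Figure D1:**
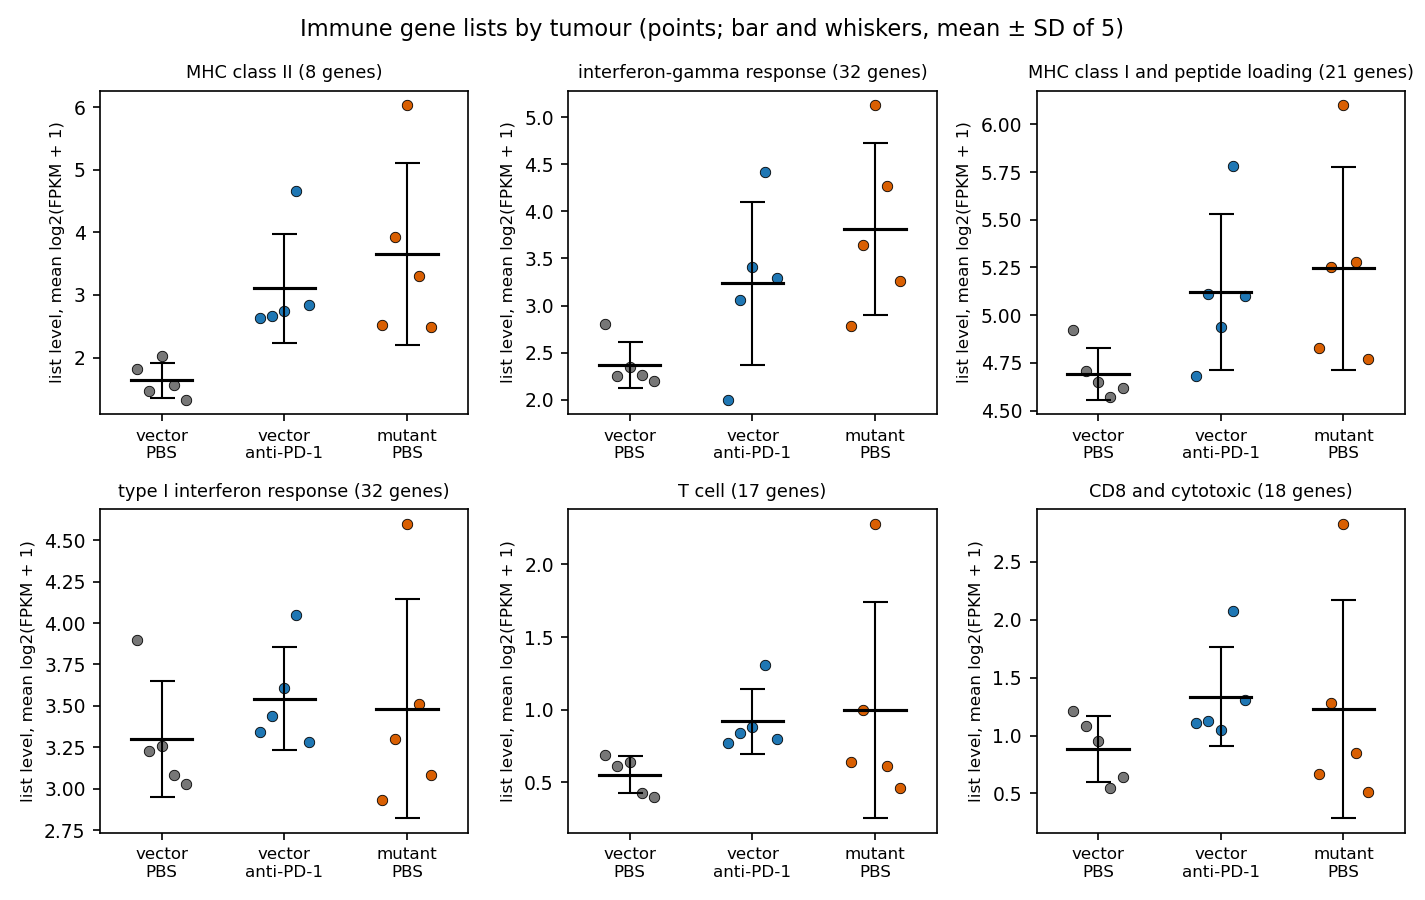
Level of 6 immune gene lists in each tumour (points), as the mean log2(FPKM + 1) of the list's tested genes, in vector PBS, vector anti-PD-1 and mutant PBS tumours, with the group mean and SD (n = 5). Class II levels of both interventions, 2.49 to 6.03 and 2.64 to 4.66, lie above the 1.33 to 2.03 of vector PBS, whereas type I interferon levels of the 3 groups overlap; each panel has its own axis, which does not start at 0.

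The plot of list levels by tumour shows that the spread within an intervention was wider than the gap between the interventions. The interferon-gamma list averaged 3.82 ± 0.92 in mutant PBS and 3.24 ± 0.86 in vector anti-PD-1 tumours against 2.37 ± 0.25 in vector PBS (mean log2(FPKM + 1), SD, n = 5). Genes of the type I interferon response, which are part of antiviral defence, had levels that overlapped the reference in both interventions. Their list averaged 3.49 ± 0.66 in mutant PBS, 3.54 ± 0.31 in vector anti-PD-1 and 3.30 ± 0.35 in vector PBS tumours, and the median direct difference was -0.04. In 27 of the 32 the interval of the direct difference lay within 2-fold, a share of 84.4% beside 83.5% of all genes. Isg15, a ubiquitin-like antiviral protein, measured 30.9, 42.2, 99.5, 42.4 and 34.3 FPKM in mutant PBS and 80.9, 38.3, 41.3, 79.2 and 27.4 FPKM in vector anti-PD-1 tumours.

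MHC class I and peptide loading genes, which present antigen to CD8 T cells, lay between these patterns. Of 21 tested, 0 passed in the direct comparison by limma, where 1.45% of all genes did, at a median of 0.14. The interval lay within 2-fold in 14 (66.7%), beside 83.5% of all genes. H2-K1, a classical class I heavy chain, measured 104, 105, 203, 84.2 and 92 FPKM in mutant PBS tumours and 42.3, 144, 68.4, 105 and 79.5 FPKM in vector anti-PD-1 tumours. Only mutant PBS replicate 3 stood clear of the antibody-treated range, and the difference of 0.45 had an adjusted p of 0.41. Nlrc5, the class I coactivator, averaged 10.8 ± 5.7 FPKM in mutant PBS and 5.84 ± 2.68 FPKM in vector anti-PD-1 tumours (SD, n = 5), a difference of 0.80 (adjusted p = 0.256). Psmb9, an immunoproteasome subunit, averaged 11.5 ± 9.15 FPKM and 10.3 ± 4.23 FPKM in the same order, against 4 ± 1.09 FPKM in vector PBS tumours. Against vector PBS the list median was 0.56 in mutant PBS and 0.39 in vector anti-PD-1 tumours, with 2 of 21 genes above every vector PBS tumour in each, where 3.3% and 0.279% of all genes were. Without vector anti-PD-1 replicate 1 it was 8 of 21 in the other 4 antibody-treated tumours (1.32% of all genes).

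T cell genes were weak in all tumours, and none passed between the interventions. Cd3e, a chain of the T cell receptor complex, measured 0.165, 0.475, 2.89, 0.152 and 0.0946 FPKM in mutant PBS and 0.042, 0.376, 0.167, 0.551 and 0.234 FPKM in vector anti-PD-1 tumours. Vector PBS tumours had 0.0199 to 0.0753 FPKM. Mutant PBS replicate 3 stood alone at the top, and the other mutant PBS tumours lay within the antibody-treated range. The difference of Cd3e was 0.28 (adjusted p = 0.558), and -0.04 without mutant PBS replicate 3.

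Cd8a, the coreceptor of CD8 T cells, measured 0.636, 1.81, 7.12, 0.145 and 0.0879 FPKM in mutant PBS tumours. In vector anti-PD-1 tumours it measured 0.0906, 1.1, 0.121, 1.29 and 0.498 FPKM, and in vector PBS tumours 0 to 0.128 FPKM. The difference of 0.48 did not pass (adjusted p = 0.511). Pdcd1, which encodes PD-1, ran from 0.102 to 6.36 FPKM in mutant PBS and from 0.131 to 1.25 FPKM in vector anti-PD-1 tumours. Foxp3, the regulatory T cell factor, was below the filter, at 0.0037 to 0.533 FPKM in the 10 tumours.

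Of 17 T cell genes tested, 0 passed in the direct comparison by limma, where 1.45% of all genes did, at a median of 0.14. The interval lay within 2-fold in 14 (82.4%), beside 83.5% of all genes. The count of 14 rests on the pseudocount, since it was 1 of 17 with a pseudocount of 0.1, where the share over all genes went from 83.5% to 65%. Their list level was 0.46 to 2.28 in mutant PBS, 0.77 to 1.31 in vector anti-PD-1 and 0.40 to 0.69 in vector PBS tumours. All 5 antibody-treated tumours thus lay above the vector PBS range, whereas mutant PBS replicates 1, 4 and 5 lay within it. The difference between the interventions in this level was not tested. Checkpoint genes (13 tested, median 0.12) and dendritic cell genes (11 tested, median -0.04) likewise had 0 that passed in either direction.

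The granzyme genes beside Gzmb separated the interventions. Gzmc, Gzmd, Gzme, Gzmf and Gzmg, all on chromosome 14, were lower in mutant PBS than in vector anti-PD-1 tumours, with differences of -4.26 to -3.18 on the log2(FPKM + 1) scale. All 5 passed, of a group of 6, and Gzmn was below the filter. Gzmc measured 0.718, 1.15, 4.92, 3.52 and 0.767 FPKM in mutant PBS tumours. It measured 99.6, 13.9, 9.25, 72.1 and 63.2 FPKM in vector anti-PD-1 and 96.5, 58.1, 24.3, 6.94 and 19 FPKM in vector PBS tumours. No mutant PBS tumour reached the lowest tumour of either vector group.

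The promoters of these genes are shown because the genes moved together and share a stretch that Gzmb lacks. Gzmb, described below, was also lower in mutant PBS tumours but did not pass, so the stretch does not divide genes that fell from genes that did not. Capitals mark 20 bases that are identical in the 300-base promoters of Gzmc, Gzmd, Gzme, Gzmf and Gzmg.
Gzmc promoter, GRCm38.p6 chr14:56234608-56234907, minus strand: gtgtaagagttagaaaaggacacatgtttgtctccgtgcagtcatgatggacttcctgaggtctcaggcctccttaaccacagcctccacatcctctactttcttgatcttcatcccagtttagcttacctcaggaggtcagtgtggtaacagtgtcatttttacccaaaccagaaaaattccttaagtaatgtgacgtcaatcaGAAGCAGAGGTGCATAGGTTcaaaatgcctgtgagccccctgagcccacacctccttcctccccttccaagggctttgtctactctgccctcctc
Gzmf promoter, GRCm38.p6 chr14:56211358-56211657, minus strand: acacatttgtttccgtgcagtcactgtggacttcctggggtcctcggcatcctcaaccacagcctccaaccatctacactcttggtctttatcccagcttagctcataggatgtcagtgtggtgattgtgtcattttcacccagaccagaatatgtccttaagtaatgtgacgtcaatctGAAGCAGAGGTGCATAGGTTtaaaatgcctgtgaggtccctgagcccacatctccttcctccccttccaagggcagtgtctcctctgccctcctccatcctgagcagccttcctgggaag
Gzmg promoter, GRCm38.p6 chr14:56159530-56159829, minus strand: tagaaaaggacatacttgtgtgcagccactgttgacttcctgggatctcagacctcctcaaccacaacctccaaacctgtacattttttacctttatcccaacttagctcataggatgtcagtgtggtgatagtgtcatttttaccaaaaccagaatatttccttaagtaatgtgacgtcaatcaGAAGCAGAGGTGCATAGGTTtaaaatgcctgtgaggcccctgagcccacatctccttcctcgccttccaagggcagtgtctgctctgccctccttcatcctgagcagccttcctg
Gzmb promoter, GRCm38.p6 chr14:56262285-56262584, minus strand: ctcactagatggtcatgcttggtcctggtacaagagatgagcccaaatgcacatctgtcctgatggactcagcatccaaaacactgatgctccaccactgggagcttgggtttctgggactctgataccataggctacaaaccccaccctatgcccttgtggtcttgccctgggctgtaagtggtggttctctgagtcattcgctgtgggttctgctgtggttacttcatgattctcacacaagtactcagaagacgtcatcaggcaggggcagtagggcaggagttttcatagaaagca
The shared run, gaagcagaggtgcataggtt in lower case, begins 45, 49, 50, 70 and 65 bases before the RefSeq start of Gzmc, Gzmd, Gzme, Gzmf and Gzmg. Of 32851 promoters in the RefSeq table only these 5 hold it (0.0152%), and Gzmb and Gzmn do not. The run was picked as the longest one common to these 5 promoters, so that count follows from the search. A link between the run and the levels was not tested. Just before the run, Gzmc, Gzmf and Gzmg hold TGACGTCA, the cyclic AMP response element, which is in 1.79% of promoters on either strand. These are descriptions of letters in the window and name no regulator. The genes are also alike as transcripts, so reads can be shared. At 75 bases, 0% of the windows of Gzmc and Gzmf, 5.73% of Gzmd, 4.75% of Gzme and 6.83% of Gzmg occur in another granzyme transcript. At 50 bases the shares are 4.14% for Gzmc, 21.9% for Gzmd, 20.6% for Gzme, 7.36% for Gzmf and 19.8% for Gzmg, and the read length is not given in the sources used here.

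Gzmg measured 0, 0.0688, 0.629, 0.582 and 0.23 FPKM in mutant PBS tumours. In vector anti-PD-1 tumours it measured 50.3, 12.2, 1.74, 53.2 and 86.5 FPKM, again without overlap. The difference was -4.26 ± 0.87 (SE, n = 5 per group, limma, adjusted p = 0.0184), and -3.73 ± 0.67 for Gzmc (adjusted p = 0.00963). Gzmd was also without overlap, at 0.688 to 1.41 FPKM in mutant PBS and 2.66 to 71.8 FPKM in vector anti-PD-1 tumours (adjusted p = 0.0169). Gzmf (adjusted p = 0.0347) and Gzme (adjusted p = 0.0232) overlapped only through vector anti-PD-1 replicate 3, at 0.89 FPKM and 0.936 FPKM.

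The plot of granzyme levels by tumour shows that the ranges of both vector groups lay over each other in these genes. Their median difference from vector PBS was -3.59 in mutant PBS, where all 5 passed and lay below every vector PBS tumour (5.74% of all genes did). In that contrast 0 passed without vector PBS replicate 1, 1 when vector PBS replicate 2 or either of mutant PBS replicates 1 and 2 was dropped, 3 without vector PBS replicate 5 and 2 with the muscle level as a covariate, and 1 in M-style and 0 in number-only libraries. The median was 0.08 in vector anti-PD-1, where 0 passed (0 of all genes did) and 0 lay below every vector PBS tumour (0.501% of all genes did). Directly compared, the median was -3.66, and -3.48 without vector anti-PD-1 replicate 1, where all 5 passed and 3 did not overlap (5.01% of all genes lay lower without overlap there). Other omissions cost calls, with 1 left without mutant PBS replicate 1 or replicate 2, 2 without vector anti-PD-1 replicate 5, 3 without its replicate 4 and 4 without mutant PBS replicate 3 or 5. Within M-style libraries the median was -4.10 and within number-only libraries -2.91, with 0 that passed in either. In the fit to the 10 libraries alone 0 passed as well, with Gzmc at adjusted p = 0.0805. Beside this, the list level of CD8 and cytotoxic genes was 1.23 ± 0.94 in mutant PBS and 1.33 ± 0.43 in vector anti-PD-1 tumours (SD, n = 5). Mutant PBS replicate 3 stood at 2.83 and the other mutant PBS tumours at 0.51 to 1.28. The median direct difference of that list was 0.06, and -0.27 without mutant PBS replicate 3. The level of the natural killer list (5 tested of 10) ran from 0.53 to 2.42 in mutant PBS and 1.29 to 2.60 in vector anti-PD-1 tumours. Its median direct difference was -0.49, and -0.72 without mutant PBS replicate 3. The part of either list in the granzyme result was not tested.

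**Figure D2:**
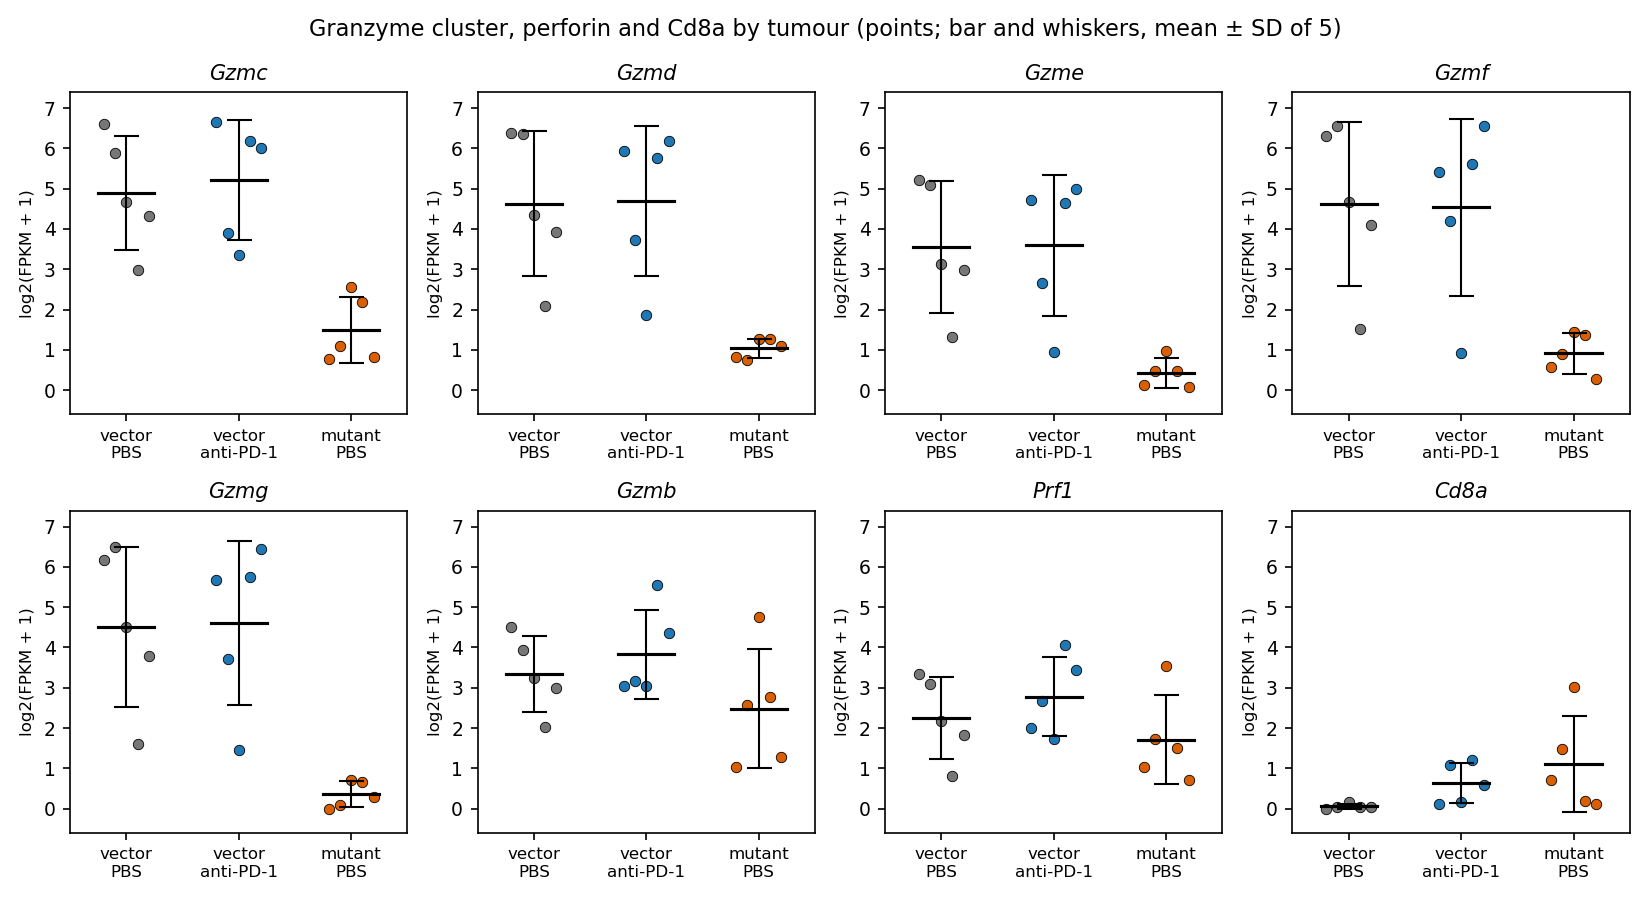
Levels of 5 granzyme genes next to Gzmb, of Gzmb, of perforin (Prf1) and of Cd8a as log2(FPKM + 1) in each vector PBS, vector anti-PD-1 and mutant PBS tumour (points), with the group mean and SD (n = 5). Gzmc, Gzmd and Gzmg in mutant PBS tumours lie below all tumours of vector anti-PD-1, whereas Gzme, Gzmf, Gzmb, Prf1 and Cd8a overlap.

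Gzmb and Prf1 themselves were not called. Gzmb, the main granzyme of activated CD8 T cells, measured 1.03, 4.97, 26, 5.82 and 1.44 FPKM in mutant PBS and 7.28, 8, 7.19, 45.8 and 19.6 FPKM in vector anti-PD-1 tumours. Mutant PBS replicate 3 was within the antibody-treated range and the other 4 were below it. The difference was -1.35, with a 95% interval of -2.59 to -0.11 and an adjusted p of 0.3 (limma). Prf1, the pore-forming perforin, differed by -1.07 (adjusted p = 0.318) and Gzma, a granzyme of T and natural killer cells encoded elsewhere, by -0.94 (adjusted p = 0.339).

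Beyond the granzymes, the largest falls named a mixed group of genes. Oplah, 5-oxoprolinase of the glutathione cycle, measured 0.204, 0.442, 0.638, 0.365 and 0.29 FPKM in mutant PBS and 1.07, 6.93, 12.3, 15.8 and 17.2 FPKM in vector anti-PD-1 tumours. It did not overlap (difference -2.74 ± 0.51, SE, adjusted p = 0.0104). C78283, a transcript of no function known here, was listed at 0 in all 5 mutant PBS tumours and measured 0.959, 7.28, 4.93, 5.63 and 7.46 FPKM in vector anti-PD-1 tumours (adjusted p = 0.000159). Dio2, the deiodinase that activates thyroid hormone, averaged 0.738 ± 0.75 FPKM and 6.15 ± 3.31 FPKM in the same order (SD, n = 5, adjusted p = 0.0123). Glod5, a glyoxalase domain gene (adjusted p = 0.00623), and the pseudogene Hmgb1-ps8 (adjusted p = 0.0139), which can share reads with Hmgb1, completed the 10. All 5 of these falls were without overlap, as were 162 of the 203 genes that passed, from which they were chosen.

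The 10 largest rises among the genes that the naming rule admits were of 1.67 or more. Cdsn, a corneodesmosome adhesion protein, measured 23.9, 25.8, 2.98, 10.7 and 11.4 FPKM in mutant PBS and 1.08, 4.84, 1.86, 2.52 and 2.14 FPKM in vector anti-PD-1 tumours. Only mutant PBS replicate 3 fell into the antibody-treated range, and the 95% interval of the difference was 1.19 to 2.80 (limma, adjusted p = 0.0135). Ndst4, an enzyme of heparan sulfate synthesis, measured 11.2, 8.69, 5.01, 7.41 and 7.46 FPKM against 0.217, 2.05, 1.67, 1.53 and 1.95 FPKM (adjusted p = 0.00215). Zc3hc1, a nuclear pore-associated protein, averaged 31.8 ± 4.24 FPKM in mutant PBS and 8.36 ± 0.892 FPKM in vector anti-PD-1 tumours (SD, n = 5, adjusted p = 0.0164).

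Ceacam1, an adhesion molecule that also binds TIM-3, measured 19.1, 25.4, 16.4, 22.2 and 23.8 FPKM in mutant PBS and 0.607, 8.17, 7.47, 4.91 and 12 FPKM in vector anti-PD-1 tumours, without overlap (difference 1.82, adjusted p = 0.0232). Its vector PBS tumours, at 3.21 to 18.1 FPKM, reached into the mutant range. Serping1, the C1 inhibitor of complement, averaged 65.1 ± 58.5 FPKM and 14.3 ± 6.23 FPKM (SD, n = 5, adjusted p = 0.0347) but did not pass without vector anti-PD-1 replicate 1 (adjusted p = 0.0573). Car6, a secreted carbonic anhydrase, passed narrowly (adjusted p = 0.0482) and in only 7 of 29 alternatives. The liver-type esterase Ces1f, the chloride channel protein Clic5, the ATP-gated channel P2rx3 and the deubiquitinase Usp17la made up the rest, with adjusted p between 0.00498 and 0.00943. Usp17la belongs to a family of near-identical copies that can share reads.

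**Figure D3:**
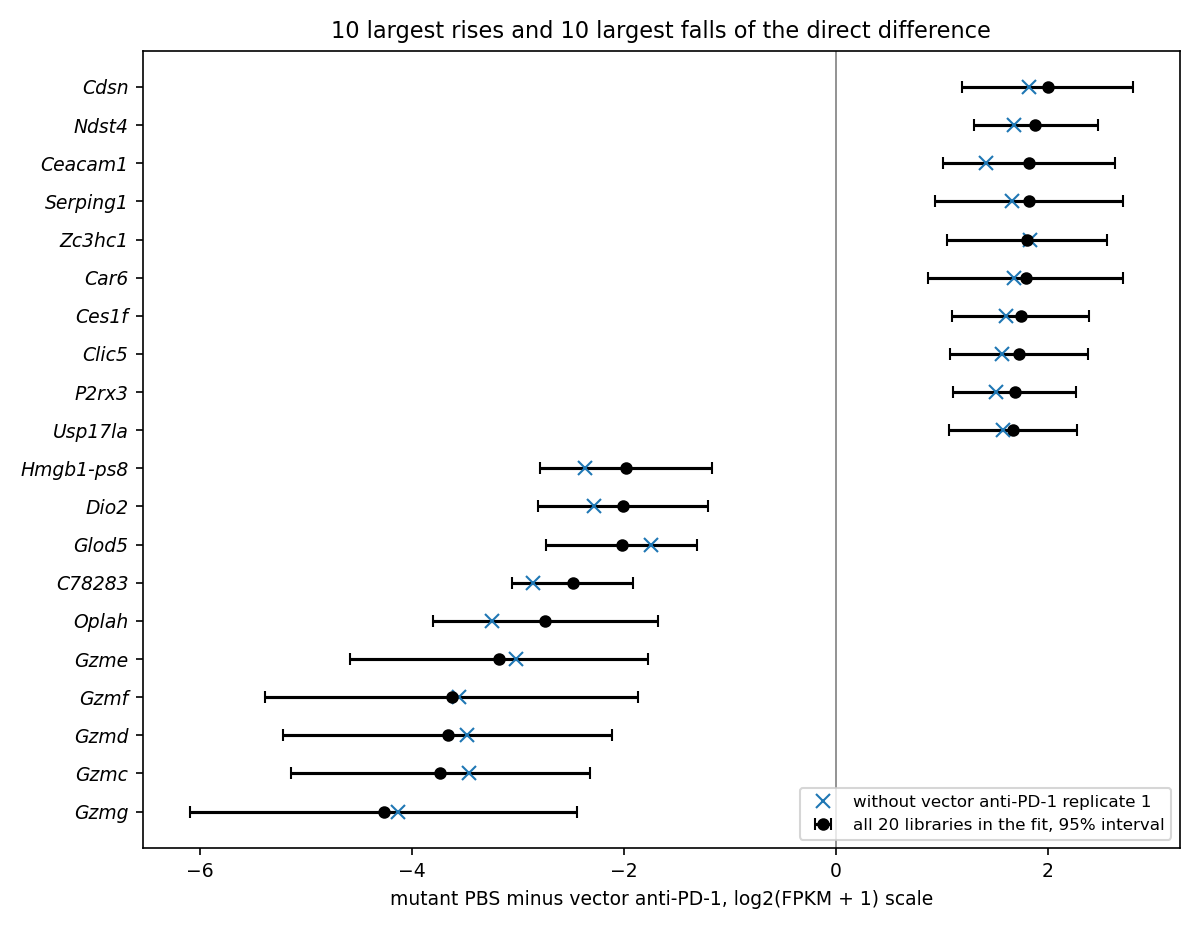
Difference of mutant PBS minus vector anti-PD-1 on the log2(FPKM + 1) scale for the 10 largest rises and 10 largest falls that the naming rule admits (points, with 95% intervals from limma), and the same without vector anti-PD-1 replicate 1 (crosses). All 20 crosses keep the sign of their point, and the widest intervals belong to the 5 granzymes.

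The genes in the plot of the largest differences were also read against vector PBS. These contrasts share tumours with the one that chose the genes, so their values are a description. Against vector PBS, Ceacam1 (1.04, adjusted p = 0.255) and Car6 (1.72, adjusted p = 0.0591) did not pass in mutant PBS tumours. For vector anti-PD-1 against vector PBS, 0 of the 20 passed by limma, where 0 of all 13982 genes tested did. That count therefore could not set the 20 apart. The differences of the 20 ran from -0.79 to 0.33. Among genes outside the naming rule, chosen after their values were seen, the predicted gene Gm14149 measured 9, 9.3, 12.8, 11.6 and 10.6 FPKM in mutant PBS and 0 to 0.35 FPKM in vector anti-PD-1 tumours (adjusted p = 0.000166). Spcs2, a signal peptidase subunit, had its lowest values in the antibody-treated tumours. It measured 3.67, 10.7, 16, 11.3 and 14.4 FPKM in vector anti-PD-1, 32.2, 31.4, 27.5, 24 and 28.6 FPKM in mutant PBS and 24.1 to 27.6 FPKM in vector PBS tumours. Its direct difference was 1.40 (adjusted p = 0.021), beside -1.25 for vector anti-PD-1 against vector PBS (adjusted p = 0.724).

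Among members of the lists, the calls beyond the granzymes were a stress gene and a growth factor gene. Herpud1, a gene of endoplasmic reticulum protein quality control, measured 61.1, 52.2, 37.5, 38.9 and 38.3 FPKM in mutant PBS and 20.3, 33.6, 24.6, 21.5 and 27.2 FPKM in vector anti-PD-1 tumours. The groups did not overlap (difference 0.81 ± 0.17, SE, adjusted p = 0.0241). It was the only 1 of 18 unfolded protein response genes to pass (median 0.24). The chaperone Hspa5 averaged 274 ± 70.9 FPKM and 133 ± 70.7 FPKM (SD, n = 5), a difference of 1.28 that did not pass (adjusted p = 0.0985) but did without vector anti-PD-1 replicate 1 (0.80, adjusted p = 0.0459).

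Areg, a ligand of the EGF receptor, measured 41, 26.4, 7.08, 26 and 23 FPKM in mutant PBS and 4.56, 9.45, 9.97, 4.98 and 6.59 FPKM in vector anti-PD-1 tumours. Only mutant PBS replicate 3 lay within the antibody-treated range (difference 1.54 ± 0.34, SE, adjusted p = 0.0269). Of 23 immediate early and ERK output genes it alone passed, and Ereg, a related ligand, differed by 1.36 (adjusted p = 0.234). Cdkn1a, the p53-induced cell cycle inhibitor, measured 88.4, 75.8, 48, 88.8 and 81.9 FPKM in mutant PBS and 17, 47.5, 61.3, 45.1 and 50.6 FPKM in vector anti-PD-1 tumours. It did not pass (0.86, adjusted p = 0.0855), and 0 of 21 p53 targets did by limma, at a median of 0.35 that was 0.15 without vector anti-PD-1 replicate 1. Cell cycle genes (29 tested, median 0.03, 26 within 2-fold) and DNA repair and polymerase genes (31 tested, median 0.13, 29 within 2-fold) also had 0 that passed. Over all genes tested 1.45% passed and 83.5% lay within 2-fold, so 0 in lists of this size does not set them apart.

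**Figure D4:**
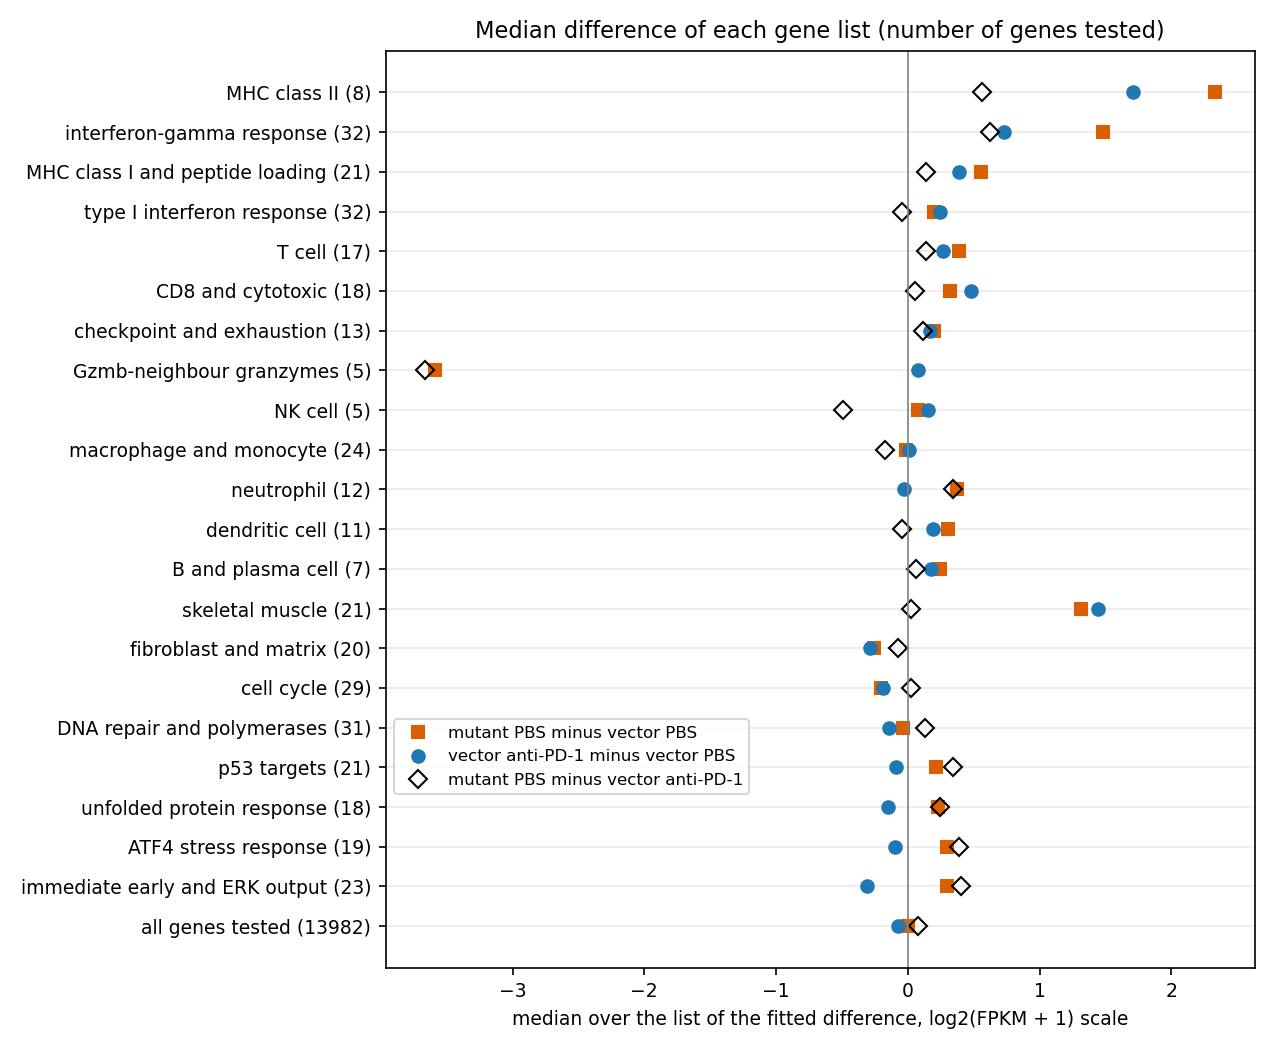
Median over each gene list of the fitted difference on the log2(FPKM + 1) scale, for mutant PBS and vector anti-PD-1 each against the same vector PBS tumours (squares and circles) and for the direct comparison (diamonds), with the number of genes tested in parentheses. The granzyme list stands alone at -3.66 in the direct comparison. Class II and interferon-gamma lists lie to the right for both interventions, and so does skeletal muscle, at 1.32 (mutant PBS) and 1.44 (vector anti-PD-1).

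Stroma and other cells are summarised in the plot of list medians. Macrophage genes (24 tested, median -0.17), fibroblast and matrix genes (20 tested, median -0.08), neutrophil genes (12 tested, median 0.34) and skeletal muscle genes (21 tested, median 0.02) had 0 members that passed in the direct comparison by limma, where 1.45% of all genes did. Their precision differed, since 17 of 24 macrophage genes but 1 of 21 muscle genes had an interval within 2-fold, beside 83.5% of all genes. Cd79a, a B cell receptor chain, lay at 0 to 0.411 FPKM in mutant PBS and 0.484 to 1.48 FPKM in vector anti-PD-1 tumours without overlap, yet did not pass (-0.68, adjusted p = 0.0899). It did not stand for its list, since of 7 B and plasma cell genes tested 4 were higher in mutant PBS tumours, at a median of 0.07. Only 1 of the 7 lay lower without overlap, where 2.07% of all genes did. Lyve1, a receptor of lymphatic vessels and of some macrophages, averaged 3.04 ± 1.67 FPKM in mutant PBS, 9.49 ± 5.32 FPKM in vector anti-PD-1 and 21.8 ± 9.16 FPKM in vector PBS tumours (SD, n = 5). Its direct difference of -1.29 did not pass (adjusted p = 0.281), while mutant PBS differed from vector PBS (-2.51, adjusted p = 0.0243). Most other members of its list did not fall. Of 12 endothelial and lymphatic genes tested, 8 were higher in mutant PBS than in vector anti-PD-1 tumours, at a median of 0.07. Against vector PBS 7 of the 12 were higher in mutant PBS tumours, at a median of 0.09, and Lyve1 alone passed.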

How the data were processed

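Bulk RNA of 20 CT26 tumours, 5 per group, was analysed from gene tables of each library. The deposited values are read as FPKM made by the authors. The headers name no unit, so FPKM is an inference: Cuffnorm is listed for the series, and the values are fractional with a minimum of 0. Per the submitters' processing notes the tools include FastQC, STAR 2.5, Cuffnorm and DESeq and the build is mm10. Their roles and order, the annotation, strand setting, scaling between libraries and read length were not stated. The tables held 10 extra columns, all empty. Of 55335 gene IDs, 55154 matched GENCODE vM21. No step turned low values into whole reads, so depth is unknown and no count test was run.

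Genes at 1 FPKM or more in at least 5 of 20 libraries (13982) were fitted on log2(FPKM + 1) with limma 3.58.1 in R 4.3.3, with a mean-variance trend, on group plus identifier style. All 20 libraries shared the spread, and p-values were Benjamini-Hochberg adjusted over all genes tested. The fit was tested on simulated data. Named genes were a panel of 32, the 10 strongest rises and the 10 strongest falls that passed, where log2(FPKM + 1) averaged 1 or more over the 10 libraries compared (without predicted genes, small RNA genes and antigen receptor segments), and up to 4 members of each list by p. Epcam, Cdx2, H2-Eb2, H2-Oa, H2-Ob, Spcs2 and Gm14149 were added after their values were seen. Members and lists were chosen with earlier results of these data known. Promoters came from the RefSeq table of GRCm38.p6, the assembly behind mm10. Alternatives covered the pseudocount, the filter, the style term, the libraries fitted, the trend, sample weights, scaling, a muscle covariate, each identifier style alone and each library of the 3 groups left out.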

Additional observations from a re-analysis of the deposited data

Results flagged for a closer look

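In 197 groups of 5 tumours, 28 values stood apart from the other 4 by more than Dixon's 95% critical value of 0.71, and chance gives such a value in about 1 in 20 groups. Levels are log2(FPKM + 1), for lists the mean over their tested genes. Many of the values share a library or a list and are not independent.

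Vector anti-PD-1 replicate 4 was highest of its group in the class II list (4.66), the T cell list (1.31), the CD8 and cytotoxic list (2.08), H2-Aa (5.71), H2-Ab1 (5.95), H2-Eb1 (5.88) and Cd74 (7.41). Mutant PBS replicate 3 was highest of its group in the checkpoint list (2.32), Cd3e (1.96) and H2-K1 (7.67), and lowest in Cdkn1a (5.62) and Hspa5 (7.25). Vector anti-PD-1 replicate 1 was lowest of its group in the p53 list (2.54), the unfolded protein response list (4.32), the immediate early and ERK list (3.19), C78283 (0.97), Ndst4 (0.28), Clic5 (0.19), Cdkn1a (4.17), Spcs2 (2.22), Nlrc5 (1.32) and Ccne2 (2.36).

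Among vector PBS tumours, replicate 1 was highest in the interferon-gamma list (2.80) and the type I interferon list (3.90), replicate 3 in Cd8a (0.17), replicate 4 in P2rx3 (2.53) and replicate 5 in Ifng (0.04). Mutant PBS replicate 1 was highest of its group in Dusp1 (5.97), an ERK phosphatase gene.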

How the results depend on the processing

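The count of 203 genes between mutant PBS and vector anti-PD-1 became 36 with only the 10 libraries compared, 1778 with sample weights, 126 with values rescaled without small RNA and mitochondrial genes, 1 in M-style libraries and 953 once the 3 libraries with the lowest mean correlation were dropped. It ran from 67 to 381 when each library was left out. Mutant PBS against vector PBS gave 2710, 110 and 12 genes with sample weights, rescaling and M-style libraries, 1643 with those 3 dropped, and 83 to 752 with each library left out. Vector anti-PD-1 against vector PBS gave 5 with sample weights and 1 in number-only libraries. The cause was not tested.

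Of 54 single genes, 24 were called, and 0 of the 24 were called in all 29 alternatives: all 24 lost the call in M-style libraries and 18 with only the 10 libraries. Their signs held in every alternative that was run. Among uncalled genes, number-only libraries turned Cd74 to -0.15, Cd3e to -0.10, Cd8a to -0.22 and Pdcd1 to -0.36, and sample weights turned Pdcd1 to -0.09. With each library left out, H2-Aa ran from -0.09 to 1.11, H2-Ab1 from -0.05 to 1.09, H2-Eb1 from -0.02 to 1.16, Cd74 from -0.07 to 0.90, Ifng from -0.02 to 0.56, Cd3e from -0.04 to 0.41 and Pdcd1 from -0.03 to 0.60, each lowest without mutant PBS replicate 3. No paired analysis was possible because the titles carry animal identifiers and no replicate numbers shared between groups.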
